A study of Mus musculus with 12 samples.

Results

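The 10 genes described here are the p53 and growth arrest targets Cdkn1a, Mdm2, Ccng1, Bax, Bbc3, Sesn1, Gadd45a, Gdf15, Plk2 and Aen. They were taken as every probe whose design name is one of these symbols, which gave 13 probes and 22 spots per array, of 55681 probes under 34787 names. Cdkn1a had 3 probes, 1 of them printed in 10 spots, Aen had 2 probes that share 50 bases, and each other gene had 1 probe. All 13 probes were well above background on all 12 arrays, so every gene was tested in every comparison. In the mm9 build of the files, the probes of the genes that changed lie at chr6:66985376-66985435 (Gadd45a), chr8:73153293-73153352 (Gdf15), chr10:117126010-117126069 (Mdm2), chr13:111190915-111190974 (Plk2), chr7:16903403-16903462 (Bbc3) and chr7:86053197-86053256 (Aen, main probe). Their placement in exons or other parts of the genes was not analysed here.

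Total RNA from 4 groups of 3 samples was hybridised, 1 sample per array, to 1-colour Agilent mouse expression arrays. RAW264.7 is a mouse macrophage line and CT-26 is a mouse colon carcinoma line. The groups were RAW264.7 cells transfected with an shRNA against Abhd5 (ABHD5-KD), RAW264.7 cells transfected with PLKO as the control, CT-26 cells primed by the ABHD5-KD RAW264.7 cells, and CT-26 cells primed by RAW264.7 cells. Abhd5 encodes a coactivator of the lipase that starts the breakdown of stored triglyceride. The design asks which pathways follow the loss of Abhd5 in macrophages, and what such macrophages do to carcinoma cells. The labels name 1 shRNA. They give no method of priming, no step that parts the carcinoma cells from the macrophages before extraction, and no origin of the 3 samples of a group in separate cultures. The p-values therefore measure only the spread between these samples, which may be technical.

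The transcription factor p53 is held low by the ubiquitin ligase Mdm2, which is itself a p53 target, and DNA damage or other stress releases it. Released p53 raises a set of genes that stop the cell cycle (Cdkn1a, Ccng1, Gadd45a, Plk2), permeabilise mitochondria (Bax, Bbc3), limit oxidative damage and growth signalling (Sesn1), cut nucleic acids in dying cells (Aen) or are secreted (Gdf15). Many of these genes also answer to factors other than p53, among them the integrated stress response and immediate early factors.

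The start regions of 5 windows are shown because Cdkn1a has 2 annotated starts, and because Mdm2, Gadd45a and Plk2 were higher in ABHD5-KD RAW264.7 cells. How the Cdkn1a probes relate to its starts was not analysed. Each runs 5′ to 3′ on the gene's strand over 300 bases, from RefSeq (GRCm38.p6), and all 10 genes matched that table. The capitals mark matches on either strand to the searched motifs, which were those of the p53 core pair (CATG, any 6 bases, then CATG), AP-1 (the letters TGACTCA), EGR (the letters GCGNGGGCG), C/EBP-ATF (the letters TGATGNAA), the E-box (the letters CACGTG), the TATA box (the letters TATAAA) and the CCAAT box (the letters CCAAT).
Cdkn1a, upstream start, plus strand, chr17:29090729-29091028: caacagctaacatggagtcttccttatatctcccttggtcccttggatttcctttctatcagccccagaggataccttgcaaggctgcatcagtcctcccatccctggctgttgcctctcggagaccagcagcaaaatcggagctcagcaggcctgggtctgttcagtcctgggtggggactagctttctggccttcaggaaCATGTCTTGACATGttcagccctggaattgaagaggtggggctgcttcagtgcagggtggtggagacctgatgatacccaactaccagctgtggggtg
Cdkn1a, downstream start, plus strand, chr17:29093519-29093818: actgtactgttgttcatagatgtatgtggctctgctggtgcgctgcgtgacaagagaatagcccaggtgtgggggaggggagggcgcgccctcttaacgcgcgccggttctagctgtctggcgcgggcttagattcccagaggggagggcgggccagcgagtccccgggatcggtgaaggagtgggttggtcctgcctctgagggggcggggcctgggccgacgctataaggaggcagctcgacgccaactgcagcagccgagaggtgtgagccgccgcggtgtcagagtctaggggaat
Mdm2, minus strand, chr10:117710709-117711008: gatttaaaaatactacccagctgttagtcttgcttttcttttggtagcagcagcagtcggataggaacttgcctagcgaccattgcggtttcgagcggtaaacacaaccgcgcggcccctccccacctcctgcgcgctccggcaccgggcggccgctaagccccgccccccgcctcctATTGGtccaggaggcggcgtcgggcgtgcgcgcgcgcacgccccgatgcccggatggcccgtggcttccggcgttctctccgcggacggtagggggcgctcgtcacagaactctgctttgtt
Gadd45a, minus strand, chr6:67037358-67037657: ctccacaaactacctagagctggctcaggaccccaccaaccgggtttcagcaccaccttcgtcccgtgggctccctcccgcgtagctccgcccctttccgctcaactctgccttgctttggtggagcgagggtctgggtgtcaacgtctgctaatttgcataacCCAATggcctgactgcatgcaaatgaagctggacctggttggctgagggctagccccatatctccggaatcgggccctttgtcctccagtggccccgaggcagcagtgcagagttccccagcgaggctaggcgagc
Plk2, plus strand, chr13:110394794-110395093: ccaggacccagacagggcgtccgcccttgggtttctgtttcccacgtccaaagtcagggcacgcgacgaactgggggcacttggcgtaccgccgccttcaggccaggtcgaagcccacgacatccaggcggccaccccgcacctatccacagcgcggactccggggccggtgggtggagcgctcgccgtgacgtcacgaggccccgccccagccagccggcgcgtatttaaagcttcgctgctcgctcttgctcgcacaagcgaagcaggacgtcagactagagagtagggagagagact

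The window at the upstream Cdkn1a start held the p53 core pair as CATGTCTTGACATG, from base -48 to base -35 relative to the start. That pair was in 0.712% of 32851 mouse promoter windows of the same length and in no other window of the 10 genes. The starts of Cdkn1a lie 2790 bases apart, and the downstream window held no match to any searched motif. The Mdm2 and Gadd45a windows each held 1 CCAAT match, a motif found in 37.4% of windows, and the Plk2 window held none of the searched motifs. Of the other motifs, 5.2% of windows held the AP-1 letters, 5.55% the EGR letters, 3.97% the C/EBP-ATF letters, 7.15% the E-box and 13.6% the TATA letters. These matches describe letters in the windows and were not tested as binding sites.

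Levels below are log2 of the processed signal minus the array's 75th percentile, so 0 is the signal at the 75th percentile of the array's spots, and a difference of 1 is a doubling. Levels of different genes come from different probes and are not set against each other. On the main probe of Abhd5, the targeted gene, levels were 0.25, 0.23 and 0.39 in ABHD5-KD RAW264.7 cells, against 1.38, 1.93 and 1.52 in control RAW264.7 cells. The groups did not overlap (log2 change -1.32, SE 0.20, adjusted p = 0.00344). Its other 2 probes gave -1.30 (adjusted p = 0.0157 over all probes) and -0.78 (adjusted p = 0.0759). In CT-26 cells its change was 0.07 (adjusted p = 0.776).

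RAW264.7 arrays lay on 2 slides, where a slide is a pair of barcode and scan date in the file headers. Control replicates 1 and 2 were on slide 1, while control replicate 3 and all 3 ABHD5-KD arrays were on slide 2, and all CT-26 arrays were on slide 3. The share of probes well above background ran from 69.0 to 73.0% in ABHD5-KD RAW264.7 arrays and was 56.5, 57.8 and 72.7% in control replicates 1 to 3. It ran from 59.2 to 66.9% in CT-26 cells primed by ABHD5-KD cells and from 68.3 to 77.3% in those primed by control cells. The median change over all genes tested was -0.30 in RAW264.7 cells and 0.11 in CT-26 cells, and changes of the 10 genes can be read against these values. Each RAW264.7 array had all 12 macrophage markers well above background, whereas Adgre1 and Spi1 were so on no CT-26 array. Of the 12, 8 were well above background on every KD-primed and 9 on every control-primed CT-26 array. Of 10 epithelial or colon carcinoma markers, 5 (Krt8, Krt18, Krt19, Krt20 and Cldn7) were well above background on every CT-26 array, and 4 (Cdh1, Cdx2, Vil1 and Cldn3) on none. Of that list, 6 were well above background on every ABHD5-KD and 2 on every control RAW264.7 array. The summed linear level of that list was 0.974 to 1.83 on RAW264.7 arrays and 26.3 to 36.7 on CT-26 arrays. Its brightest marker on CT-26 arrays was Krt20, at 4.46 to 4.88. All 6 fibroblast or mesenchymal markers were well above background on every CT-26 array, 4 on every ABHD5-KD and 3 on every control RAW264.7 array. In bulk RNA, fewer cells of a type and less RNA per cell cannot be told apart.

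In RAW264.7 cells, 4 of the 10 genes rose with the Abhd5 knockdown and 1 fell. Gadd45a, Gdf15, Mdm2 and Plk2 were 2.84-fold to 4.67-fold higher, and Bbc3 fell to 56.5% of the control level. Over all 25306 genes tested, 22.8% passed the same test, 7.93% as higher and 14.9% as lower. The groups did not overlap for 8 of the 10 genes, against 52.2% of all genes tested. The median change of the 10 genes was 0.44.

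Among the genes of cell cycle arrest, Gadd45a, which binds PCNA and feeds stress kinase signalling, changed the most. Its levels were 4.02, 4.02 and 3.95 in ABHD5-KD cells, against 1.77, 1.57 and 1.97 in control cells. The 3 knockdown arrays lay within 0.1 of each other and far above all 3 controls, a log2 change of 2.22 (95% interval 1.81 to 2.63, adjusted p = 0.000113). Plk2, a polo-like kinase of the cell cycle and centriole duplication, had 1.94, 1.80 and 1.999 in ABHD5-KD cells, against 0.52, 0.46 and 0.24 in control cells. It was 2.84-fold higher with no overlap (log2 change 1.51, SE 0.18, adjusted p = 0.000895).

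Cdkn1a, which encodes the cyclin-dependent kinase inhibitor p21, did not pass the test. On its main probe the levels were 3.92, 3.94 and 3.93 in ABHD5-KD cells, against 3.73, 2.94 and 3.91 in control cells. The groups did not overlap, but control replicate 3 was within 0.05 of the knockdown arrays, and the spread lay in the slide 1 controls. The log2 change was 0.41 (95% interval -0.18 to 1.0003, adjusted p = 0.244). Ccng1, a cyclin that recruits a phosphatase to Mdm2, had 0.51, 0.87 and 0.50 in ABHD5-KD cells, against 0.50, 0.75 and 0.07 in control cells. Those groups overlapped (log2 change 0.19, 95% interval -0.32 to 0.70, adjusted p = 0.528).

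Mdm2, the negative regulator of p53, had 3.81, 3.92 and 3.83 in ABHD5-KD cells, against 2.03, 2.17 and 2.70 in control cells. Control replicate 3 was the highest control and still lay more than 1 log2 unit below every knockdown array. The change was 1.56 (95% interval 1.07 to 2.04, adjusted p = 0.00217). Gdf15, a secreted stress cytokine of the TGF-beta superfamily, had -0.22, -0.31 and -0.58 in ABHD5-KD cells, against -2.45, -1.86 and -2.25 in control cells. It was 3.53-fold higher without overlap (log2 change 1.82, SE 0.21, adjusted p = 0.000911).

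The cell death genes Bbc3, Bax and Aen all had negative changes, as did the median of all genes (-0.30). Only Bbc3 passed the test. The groups did not overlap for any of them, against 52.2% of all genes tested. Bbc3, which encodes the BH3-only protein PUMA, had 3.85, 3.87 and 3.64 in ABHD5-KD cells, against 4.63, 4.79 and 4.405 in control cells. Every knockdown array was below every control (log2 change -0.82, SE 0.18, adjusted p = 0.0193). Bax, the pore-forming effector of mitochondrial apoptosis, had 4.32, 4.55 and 4.33 in ABHD5-KD cells, against 4.65, 4.56 and 5.03 in control cells. Its log2 change of -0.35 lay close to the median of all genes (adjusted p = 0.190), and it was 0.04 under quantile normalization. Aen, an apoptosis-enhancing nuclease, had 3.83, 3.74 and 3.69 in ABHD5-KD cells, against 4.02, 4.28 and 4.05 in control cells. Its log2 change was -0.36 (95% interval -0.76 to 0.03, adjusted p = 0.135). Sesn1, a stress-inducible inhibitor of mTORC1 signalling, had 1.16, 0.93 and 0.80 in ABHD5-KD cells, against -0.36, 0.79 and 1.04 in control cells. Control replicate 1 was far below the other 5 arrays, and the log2 change of 0.47 (adjusted p = 0.305) was -0.08 with slide as a block.

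With slide as a block, the change rests on the slide 2 arrays, which include 1 control, and 4.59% of the 25306 genes passed. Gadd45a (log2 change 2.02, adjusted p = 0.00242), Plk2 (1.68, adjusted p = 0.0065), Gdf15 (1.88, adjusted p = 0.0117) and Mdm2 (1.16, adjusted p = 0.0355) still rose. The call on Bbc3 was lost (-0.62, adjusted p = 0.249), as was that on Abhd5 itself (-1.23, adjusted p = 0.0554). The change of Cdkn1a was then 0.02. The same 4 genes passed with the slide 2 arrays alone, where the spread of the 1 control is taken from the knockdown arrays.

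**Figure D1:**
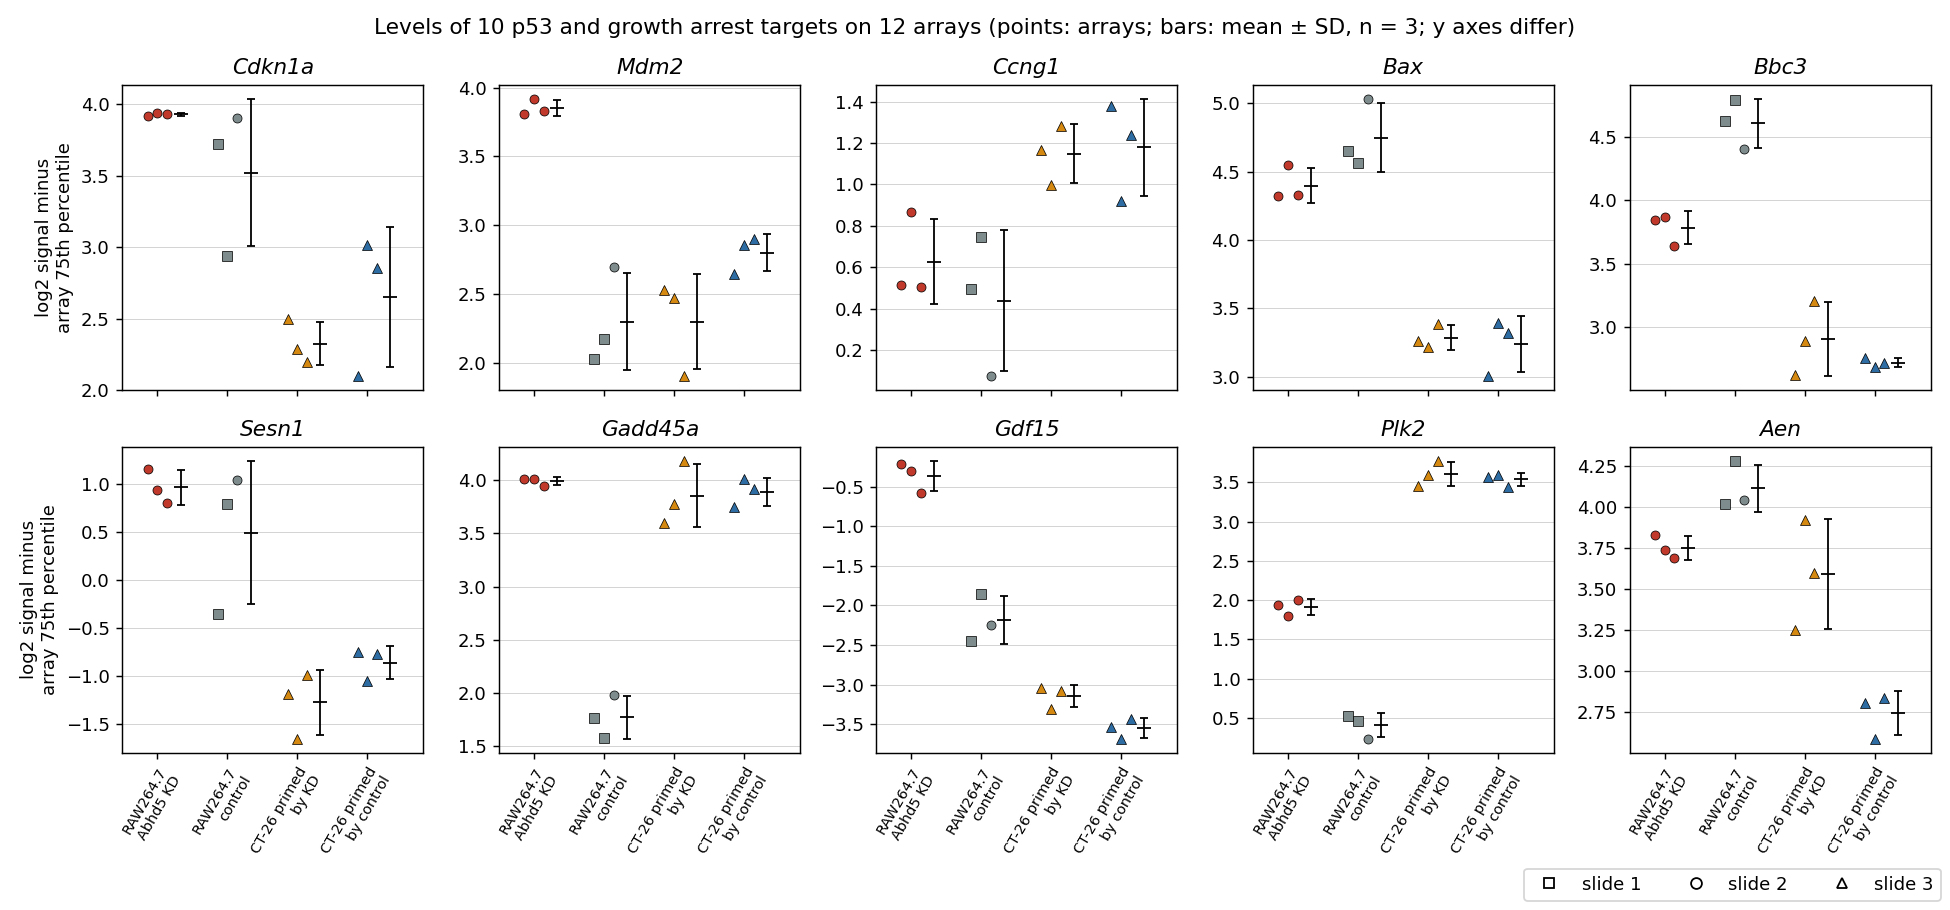
Levels of the 10 genes on each of the 12 arrays (log2 signal minus the array's 75th percentile, y axes differing by gene), with the mean and SD of each group of 3 and the slide as point shape. For Gadd45a, Mdm2, Gdf15 and Plk2 every ABHD5-KD RAW264.7 array lies above every control RAW264.7 array, and the CT-26 groups lie close together for Gadd45a and Plk2.

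In CT-26 cells, 1 of the 10 genes changed with the kind of macrophage that primed them. Aen was 1.80-fold higher after priming by ABHD5-KD cells. Over all 24824 genes tested 6.32% passed, 3.14% as higher and 3.17% as lower. The groups did not overlap for 3 of the 10 genes (Aen, Mdm2 and Gdf15), against 36.2% of all genes, and the median change of the 10 genes was 0.01.

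Aen had 3.25, 3.92 and 3.60 in CT-26 cells primed by ABHD5-KD cells, against 2.81, 2.59 and 2.83 in those primed by control cells. All 3 KD-primed arrays were higher, and they spread over more than 0.6 log2 units. The change was 0.85 (95% interval 0.41 to 1.29, adjusted p = 0.0399), and its other probe gave 0.84 (adjusted p = 0.0318 over all probes). The call was lost when any of 5 of the 6 arrays was left out, all but KD-primed replicate 1, and with quantile normalization or without the filter on dim probes, and the adjusted p ran from 0.0247 to 0.137 over the alternatives.

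Mdm2 had 2.53, 2.47 and 1.90 in KD-primed CT-26 cells, against 2.65, 2.86 and 2.90 in control-primed cells. The KD-primed arrays were all lower, yet the change of -0.50 did not pass (95% interval -0.95 to -0.06, adjusted p = 0.132). Gdf15 had -3.05, -3.31 and -3.08 in KD-primed cells, against -3.53, -3.68 and -3.43 in control-primed cells, a change of 0.40 (95% interval 0.05 to 0.76, adjusted p = 0.128). Neither difference holds after adjustment over all genes.

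Gadd45a had 3.60, 3.78 and 4.18 in KD-primed cells, against 3.75, 4.01 and 3.92 in control-primed cells, and its interval ran from -0.46 to 0.38. Plk2 had 3.46, 3.59 and 3.77 in KD-primed cells, against 3.57, 3.59 and 3.45 in control-primed cells, with an interval from -0.28 to 0.42. The groups overlapped for both genes. The changes of Bax (0.05), Bbc3 (0.19) and Ccng1 (-0.03) were within the spread between arrays, with adjusted p of 0.861, 0.499 and 0.919. Bax had 3.26, 3.21 and 3.39 in KD-primed cells, against 3.003, 3.39 and 3.32 in control-primed cells. Bbc3 had 2.62, 2.89 and 3.21 in KD-primed cells, against 2.76, 2.68 and 2.72 in control-primed cells. Here 1 KD-primed array was below all controls and the other two were above them. Ccng1 had 1.17, 0.997 and 1.28 in KD-primed cells, against 1.38, 0.92 and 1.24 in control-primed cells. Sesn1 had -1.19, -1.65 and -0.99 in KD-primed cells, against -0.75, -1.05 and -0.77 in control-primed cells, a change of -0.41 (adjusted p = 0.197). The Sesn1 groups overlapped.

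The test of the difference between the 2 changes, RAW264.7 change minus CT-26 change, passed for 6 of the 10 genes, against 31.4% of 26887 genes tested. It was positive for Gadd45a (2.26), Mdm2 (2.06), Plk2 (1.44) and Gdf15 (1.41) and negative for Bbc3 (-1.01) and Aen (-1.21). Over all genes 7.43% passed as positive and 24% as negative, and the median difference was -0.39. For Gadd45a, Mdm2, Plk2 and Gdf15 the adjusted p lay between 0.000142 and 0.00362, for Aen it was 0.00712, and for Bbc3 it was 0.0135. Cdkn1a (0.74, adjusted p = 0.155), Sesn1 (0.89, adjusted p = 0.136), Ccng1 (0.22, adjusted p = 0.574) and Bax (-0.40, adjusted p = 0.223) did not pass. Cdkn1a passed under quantile normalization (1.19, adjusted p = 0.0419) and without control-primed CT-26 replicate 1 (1.02, adjusted p = 0.0495), and Sesn1 passed without RAW264.7 control replicate 3 (1.16, adjusted p = 0.0451). The call on Bbc3 was lost with slide as a block and under quantile normalization, and that on Aen was lost under quantile normalization.

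**Figure D2:**
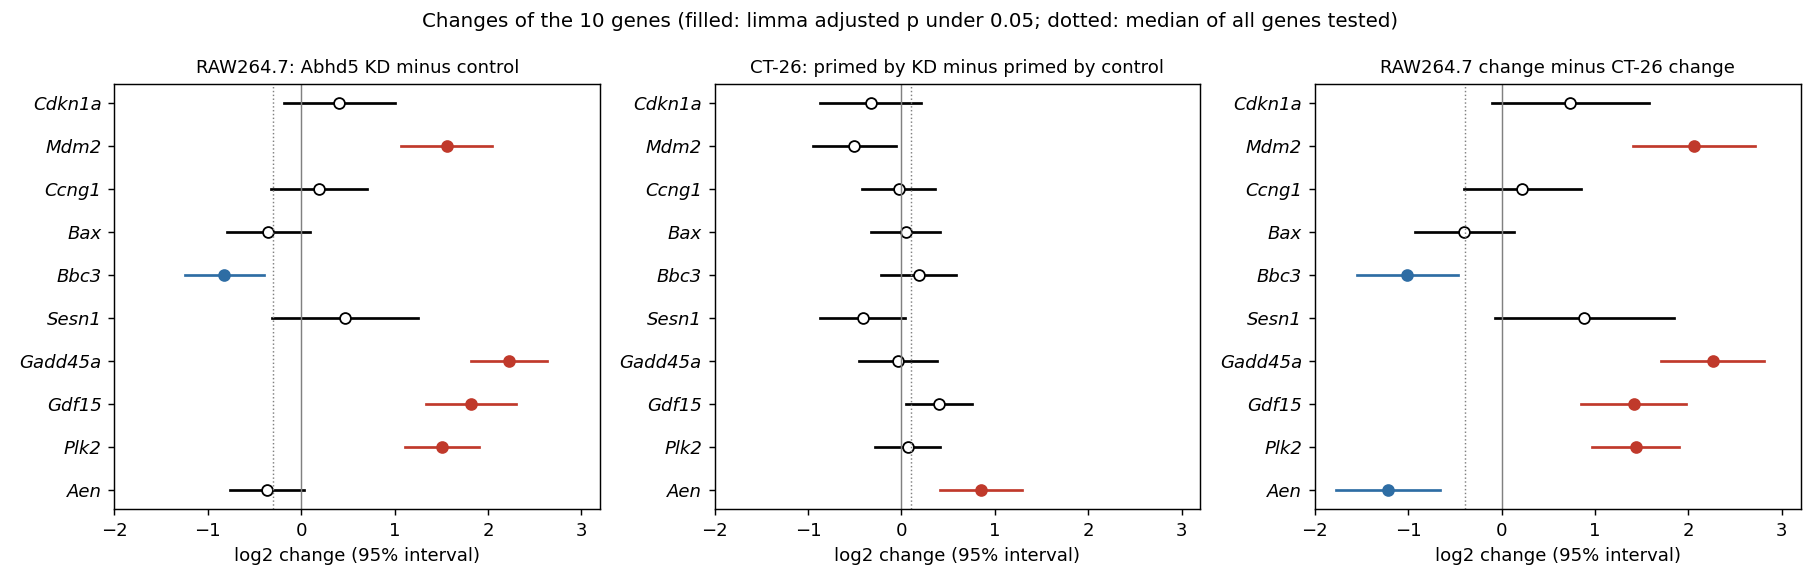
Log2 change of each of the 10 genes with its 95% interval in RAW264.7 cells (left), in CT-26 cells (middle) and as the difference between them (right), filled where the adjusted p is under 0.05, with the dotted line at the median of all genes tested. Gadd45a, Gdf15, Mdm2 and Plk2 stand apart in RAW264.7 cells and Aen in CT-26 cells.

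The control groups of the 2 cell lines differed at all 10 genes, against 72.1% of 25412 genes tested. Here cell line, slide and priming cannot be told apart. Control RAW264.7 cells were higher at 6 genes, led by Bbc3 (log2 difference 1.89), Bax (1.51) and Aen (1.37), and lower at 4, led by Plk2 (-3.13) and Gadd45a (-2.12). Over all genes 45.8% were higher and 26.4% lower, and the median difference was 0.41. Gdf15 (1.36), Sesn1 (1.35) and Cdkn1a (0.87) were the other genes higher in control RAW264.7 cells. Ccng1 (-0.74) and Mdm2 (-0.50) were the others lower. The Mdm2 difference (adjusted p = 0.0468) was lost under 13 of 18 alternatives.

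For Gadd45a the highest mean was in ABHD5-KD RAW264.7 cells (3.99 ± 0.04, SD, n = 3). The means were 3.85 ± 0.30 in KD-primed and 3.89 ± 0.13 in control-primed CT-26 cells, and 1.77 ± 0.20 in control RAW264.7 cells. The ABHD5-KD RAW264.7 arrays overlapped both CT-26 groups, and control RAW264.7 cells lay 2.08 log2 units below the next group. Plk2 had a different order, with both CT-26 groups highest and overlapping, ABHD5-KD RAW264.7 cells 1.62 log2 units below them, and control RAW264.7 cells 1.51 below those. Mdm2 was highest in ABHD5-KD RAW264.7 cells, 1.05 above control-primed CT-26 cells, and KD-primed CT-26 cells and control RAW264.7 cells overlapped at the low end. The Gdf15 means fell from ABHD5-KD RAW264.7 cells through control RAW264.7 cells and KD-primed CT-26 cells to control-primed CT-26 cells. Neighbouring groups did not overlap. The last step, of 0.40 between the CT-26 groups, did not pass the limma test (adjusted p = 0.128), and 36.2% of all genes had CT-26 groups without overlap. Bax and Bbc3 were highest in control RAW264.7 cells and lowest in the CT-26 groups, which overlapped. Aen was highest in control RAW264.7 cells and lowest in control-primed CT-26 cells, with ABHD5-KD RAW264.7 and KD-primed CT-26 cells overlapping between them.

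By root mean square difference of centred log2 levels over the 12 arrays and 19730 genes, the nearest genes to Gadd45a were Ecm1 (0.19), Fam20c (0.24) and Rnf183 (0.24), where the median gene was at 1.18. The nearest to Mdm2 were Osgin1 (0.21), Fut7 (0.22) and Pafah2 (0.22), with a median of 0.89. The nearest named genes to Cdkn1a were AI467606 (0.13) and Tep1 (0.15), with a median of 0.79. Between 2 of the 10 genes, the closest were Bax and Bbc3 at 0.29. All values share the same arrays and the cell line difference.

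The 3 Cdkn1a probes did not give the same picture. In the mm9 build used by the files they lie on chromosome 17 at 29227986 to 29228045 (upstream probe, for NM_001111099), 29235299 to 29235358 (middle probe, for ENSMUST00000122348) and 29237377 to 29237436 (main probe, for NM_007669). The upstream probe starts 9391 bases before the main probe. No 12-base stretch of a probe occurs in the start windows above.

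The upstream probe had 3.36, 3.47 and 3.35 in ABHD5-KD RAW264.7 cells, against 3.52, 3.31 and 3.78 in control RAW264.7 cells. It had -0.04, 0.14 and 0.20 in KD-primed CT-26 cells, against -0.39, 0.07 and -0.16 in control-primed cells. Every RAW264.7 array was thus more than 3 log2 units above every CT-26 array. Control RAW264.7 cells were 12.99-fold above control-primed CT-26 cells on this probe (log2 difference 3.699, SE 0.17), 1.83-fold above on the main probe (0.87, SE 0.27) and 1.06-fold on the middle probe (0.08, SE 0.27). The upstream minus main difference within an array averaged 0.02 ± 0.32 in control RAW264.7 cells and -2.82 ± 0.28 in control-primed CT-26 cells (SD, n = 3 each). These arrays did not overlap, with an exact two-sided permutation p of 0.1, the smallest that 3 against 3 allows. This comparison was chosen after the probes' values were seen.

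No Cdkn1a probe passed the test in the knockdown or the priming comparison. The log2 change on the upstream probe was -0.15 in RAW264.7 cells and 0.26 in CT-26 cells. On the middle probe the RAW264.7 change was -0.04 and the CT-26 change was -0.70 (95% interval -1.35 to -0.05, adjusted p = 0.145 over all probes). The middle probe had -1.68, -1.33 and -1.09 in ABHD5-KD RAW264.7 cells, against -1.16, -1.47 and -1.36 in control cells. It had -2.46, -2.24 and -1.64 in KD-primed CT-26 cells, against -1.81, -0.88 and -1.54 in control-primed cells, with overlap in both lines.

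The 10 spots of the main Cdkn1a probe measure how far 1 array repeats itself. Their SD was 0.04 to 0.05 log2 units on the ABHD5-KD RAW264.7 arrays, and 0.07, 0.12 and 0.04 on control RAW264.7 replicates 1 to 3. It was 0.53, 0.09 and 0.11 on KD-primed CT-26 arrays and 0.32, 0.05 and 0.26 on control-primed ones. On KD-primed replicate 1 single spots ran from 1.91 to 3.21. Over the 399 probes printed in 10 spots, the median SD was 0.058 to 0.071 on the 4 slide 2 arrays and 0.136 to 0.168 on the arrays of slides 1 and 3.

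**Figure D3:**
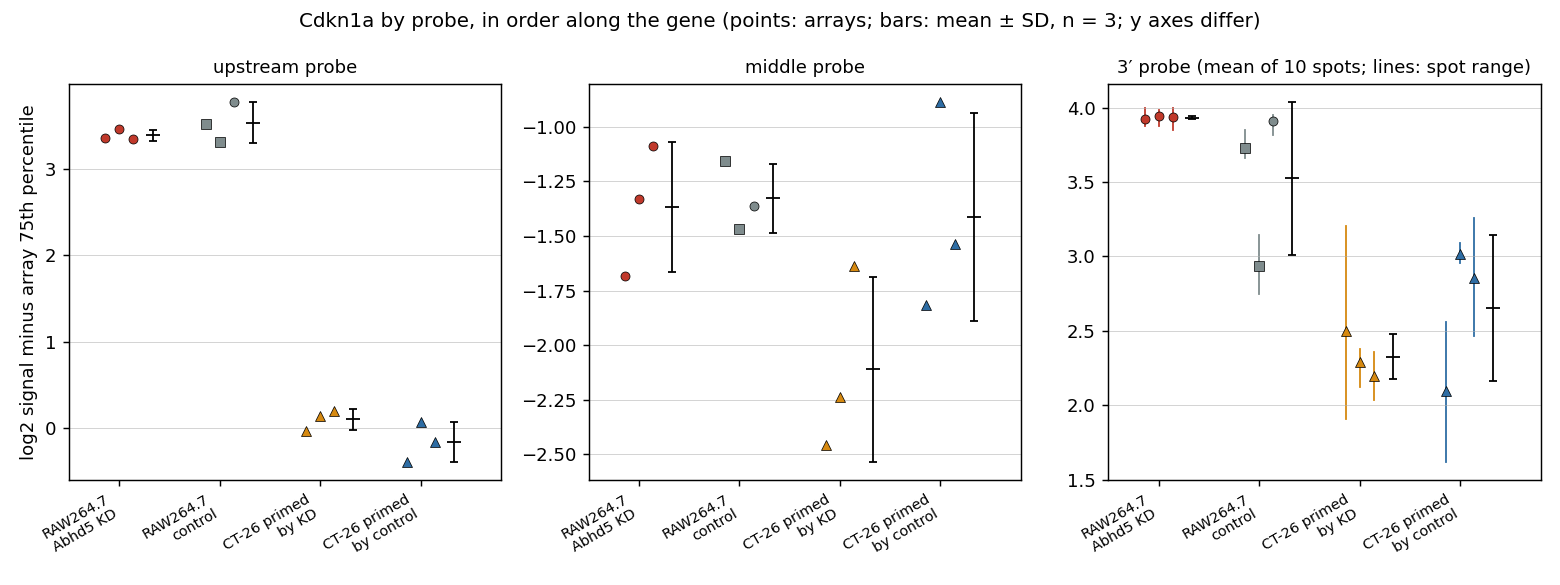
Levels of the 3 Cdkn1a probes in order along the gene on each array (log2 signal minus the array's 75th percentile, y axes differing by probe), with group mean and SD (n = 3) and, for the main 3′ probe, the range of its spots as a line. The upstream probe separates RAW264.7 from CT-26 arrays, and the spot ranges are widest on KD-primed replicate 1 and control-primed replicates 1 and 3.

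Of 90 other genes of the pathway in 5 lists, 85 were tested in RAW264.7 cells, where 18 rose and 10 fell, together 32.9% against 22.8% of all genes, and 12 to 25 were called when single arrays were left out. Of these 28 calls, 8 held with slide as a block (Bik, Eda2r, Egr1, Fas, Gadd45g, Klf6, Myc and Trp53i11). In CT-26 cells 81 were tested, 3 rose and 3 fell, together 7.41% against 6.32% of all genes. There 1 was called without control-primed replicate 2 or 3 or KD-primed replicate 2 or 3, and 11 without KD-primed replicate 1. The lists were chosen with earlier results of these data known, so the shares called are not independent of those results. Some genes, such as Mdm4 and Plk3, are in more than 1 list.

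Among the regulators of p53, 1 of 18 rose and 2 fell in RAW264.7 cells (median change -0.11), which is 16.7% against 22.8% of all genes. Trp53, which encodes p53, had 2.83, 3.16 and 3.04 in ABHD5-KD cells, against 3.17, 2.81 and 3.40 in control cells, and its change was -0.12 (adjusted p = 0.682). Mdm4, the Mdm2 paralog that blocks p53's activation domain, had -1.83, -1.67 and -1.99 in ABHD5-KD cells, against -3.07, -4.44 and -3.42 in control cells. It rose by 1.81 (adjusted p = 0.00855), a call lost with slide as a block (1.59, adjusted p = 0.121). The damage kinases Atm (-1.03, adjusted p = 0.0465) and Atr (-0.71, adjusted p = 0.0447) fell, and neither call held with the block. In CT-26 cells Mdm4 (-0.85, adjusted p = 0.0319) and the acetyltransferase Ep300 (-0.87, adjusted p = 0.0336) fell, and Trp53 was at 0.01 (adjusted p = 0.985).

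Of 33 other p53 targets, 7 rose and 4 fell in RAW264.7 cells (median change 0.22), which is 33.3% against 22.8% of all genes. In CT-26 cells 0 of the 30 tested passed in limma, and 6 were higher and 1 was lower at an unadjusted p under 0.05. Fas, the death receptor, had -0.15, -0.25 and 0.03 in ABHD5-KD cells, against -2.54, -2.89 and -2.74 in control cells, a rise of 2.60 (adjusted p = 5.74e-05). Eda2r, a receptor of the TNF receptor family, rose by 1.80. The kinase gene Plk3 rose by 1.002 and Ak1, an adenylate kinase, by 0.73. Trp53i11 had -5.62, -5.54 and -5.74 in ABHD5-KD cells, against -1.91, -2.50 and -1.53 in control cells, a log2 change of -3.65 (adjusted p = 5.54e-05). These knockdown levels are near the floor, so the size of the change is uncertain. The lowest level well above background was -6.77 to -6.32 on the ABHD5-KD arrays, and -4.80 and -4.60 on control replicates 1 and 2. Ptp4a3 (-1.004), Fdxr (-0.75) and Rps27l (-0.67) also fell. In this list Fas, Eda2r and Trp53i11 kept their calls with slide as a block.

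The paralogs of the 10 genes gave 4 rises and 1 fall among 13 tested in RAW264.7 cells (median change 0.11), which is 38.5% against 22.8% of all genes. Next to the rise of Gadd45a, Gadd45g had 0.04, 0.08 and 0.32 in ABHD5-KD cells, against 1.41, 1.29 and 1.44 in control cells, and fell by 1.24 on the log2 scale (change -1.24, adjusted p = 0.00244). Gadd45b had a change of -0.39 that did not pass (adjusted p = 0.104). Of the kinase inhibitors related to p21, Cdkn1c rose by 0.88 (adjusted p = 0.047), a call lost with the block, and Cdkn1b had a change of 0.45 (adjusted p = 0.202). Ccng2, a paralog of Ccng1, rose by 0.95 (adjusted p = 0.0198), also lost with the block. Sesn2 had a change of 0.25 (adjusted p = 0.327), and Sesn3 was not tested, as no probe under that name met the rule for testing. In CT-26 cells 1 of 13 paralogs, Mdm4, fell.

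Of 13 other BCL-2 family genes tested in RAW264.7 cells, 2 rose and 3 fell (median change 0.11), which is 38.5% against 22.8% of all genes. The BH3-only genes moved both ways, with Bik higher by 2.82 and Bcl2l11 by 1.14, and Bmf (-0.89) and Bid (-0.63) lower. The antiapoptotic gene Bcl2l1 was lower too (-1.13, adjusted p = 0.00399). Of these only Bik held with slide as a block. In CT-26 cells 2 of 11 rose, Bad by 0.87 and Bik by 1.03, and Bmf fell (-0.93). Bik was well above background on 2 of the 3 control-primed arrays.

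Of 14 stress transcription factors, 6 rose and 0 fell with the knockdown in RAW264.7 cells (limma, median change 0.29), and at an unadjusted p under 0.05 there were 6 higher and 2 lower. The share that rose was 42.9%, against 7.93% of all genes, and 14.9% of all genes fell. With slide as a block 3 of the 6 rises held. Myc had 1.65, 1.69 and 1.92 in ABHD5-KD cells, against -1.42, -1.45 and -0.34 in control cells, a rise of 2.82 (adjusted p = 0.000553). Egr1, an immediate early factor, rose by 2.74, Klf6 by 1.09 and Cebpd by 0.91. Myc, Egr1 and Klf6 kept their calls with slide as a block, and Cebpd did not. On the slide 2 control array, Myc and Egr1 were higher than on both slide 1 control arrays. In CT-26 cells Cebpd had 2.48, 2.83 and 3.16 in KD-primed cells, against 0.95, 0.81 and 0.79 in control-primed cells, a rise of 1.97 (adjusted p = 0.00269).

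**Figure D4:**
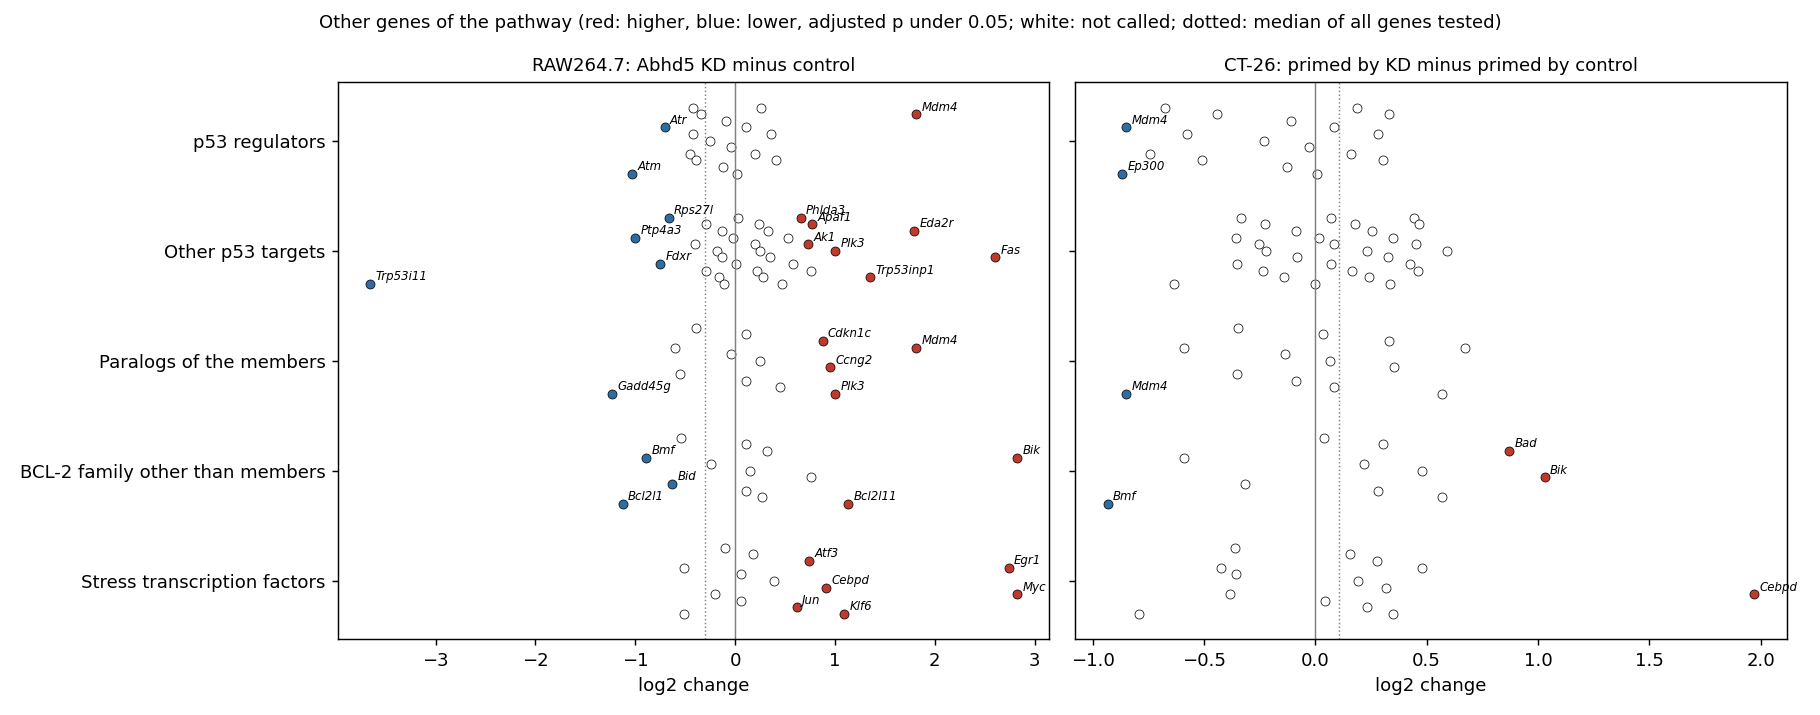
Log2 change of each tested gene in 5 lists around the 10 genes in RAW264.7 cells (left) and CT-26 cells (right), red where higher and blue where lower at an adjusted p under 0.05, with the dotted line at the median of all genes tested (-0.30 and 0.11). In RAW264.7 cells called genes lie on both sides in every list but that of stress transcription factors, and in CT-26 cells 6 genes are called.

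Of the 12 macrophage markers, 3 rose in RAW264.7 cells, Adgre1, Lyz2 and Cd53, and Adgre1 kept its call with slide as a block. That is 25%, against 22.8% of all genes called and 7.93% called as higher. The summed linear level of the list was 311 to 353 in ABHD5-KD cells and 293 to 331 in control cells. In CT-26 cells 1 of the 9 tested, Cd68, fell (-0.83, adjusted p = 0.0206). That is 11.1%, against 6.32% of all genes called and 3.17% called as lower. The summed level was 56.8 to 75.1 in KD-primed cells and 55.2 to 61.0 in control-primed cells. On CT-26 arrays this sum mostly reflects Itgam, the brightest marker, at 5.51 to 6.07, against 5.68 to 6.62 on RAW264.7 arrays. The part of these markers in the changes of the 10 genes was not tested.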

How the data were processed

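The deposited scanner files hold spot intensity, per the file headers, on a linear scale, read with Agilent Feature Extraction 10.7.3.1 (also per the submitters' processing notes), with probe coordinates of mm9; the authors applied no scaling between arrays there. The deposited table of processed values holds log2 values minus a constant per array for RAW264.7, as read from the values, and linear intensity for CT-26. Its CT-26 columns matched their own scanner file for 1 of 6 samples and another replicate of the same group for the other 5, so it served as an alternative. Its column medians were -4.01, -3.94 and -3.93 for ABHD5-KD and -3.81, -3.53 and -3.90 for control RAW264.7, and 227.4, 132.4 and 174.8 for KD-primed and 274.3, 277.3 and 275.9 for control-primed CT-26 cells. The authors' background method and centring rule are not given in the sources used here.

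Each array had 59305 spots that were not controls; 3671 control spots and 172 to 272 flagged spots were left out, and none was saturated. The log2 processed signal minus the array's 75th percentile was averaged over spots of a probe, and the brightest detected probe stood for a gene. Probes were named through RefSeq accessions (26762), symbols (4458) or the design name (24461). A gene was tested where a probe of it was well above background in all 3 samples of at least 1 of the groups compared. The test was limma 3.58.1 (R 4.3.3, lmFit and eBayes), Benjamini-Hochberg adjusted over all genes, at 0.05; RAW264.7 and CT-26 were fitted separately, and the difference between their changes, and that between cell lines, over all 12 arrays. The fits were also run on simulated data with independent arrays and no slide effect, which cannot address the slide layout of the RAW264.7 arrays. The number of arrays limits the precision.

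The 10 genes and the lists were chosen with earlier results of these data known. Named genes were the 10 genes, Abhd5, up to 4 genes per list, direction and cell line with the smallest p among those called, 9 paralogs or regulators whatever their values, and 3 nearest genes each for Cdkn1a, Mdm2 and Gadd45a. No pairing was used. Same-numbered replicates of the scanner files did not deviate together (correlations -0.02 to 0.04 in RAW264.7, -0.21 to -0.05 in CT-26). With the replicate numbers that the deposited table gives CT-26, the correlations were -0.05 to 0.19. The CT-26 numbers thus differ between sources, and this check cannot exclude pairing there. Alternatives were median centring, quantile normalization, normexp background (offset 50), no filter on dim probes, the mean of a gene's probes, the deposited values, slide and replicate blocks, and leaving out each array.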

Additional observations from a re-analysis of the deposited data

Results flagged for a closer look

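The change in RAW264.7 cells differed from that in CT-26 cells, by a test of the difference itself (limma interaction term), for 6 of the 10 genes. Over all 26887 genes tested 31.4% passed, 7.43% as positive and 24% as negative. The RAW264.7 change minus the CT-26 change was 2.26 for Gadd45a, 2.06 for Mdm2, 1.44 for Plk2, 1.41 for Gdf15, -1.01 for Bbc3 and -1.21 for Aen, on the log2 scale. Groups of 3 arrays were not searched for single arrays that stand apart.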

How the results depend on the processing

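In RAW264.7 cells the rises of Gadd45a, Gdf15, Mdm2 and Plk2 kept their direction and their call under all 15 alternatives, with 4 or 5 of the 10 genes called. These alternatives are not all separate checks. Each of these 4 genes had 1 probe, so the mean of probes left their values as they were. The deposited RAW264.7 values matched the scanner values up to a constant per array. Slide as a block and slide 2 arrays alone gave the same changes. Bbc3 kept its direction, and its call was lost under 8 of the 15 (quantile normalization, no filter on dim probes, slide as a block, slide 2 arrays alone, and without control replicate 1 or any ABHD5-KD replicate). In CT-26 cells the count of 1 gene, Aen, was 0 with quantile normalization, 0 with no filter on dim probes and 0 with the replicate block, and 0 to 1 when single arrays were left out. The replicate block left 5 of the 10 genes called in RAW264.7 cells and 6 in the test of the difference. Same-numbered RAW264.7 arrays did not deviate together, and the CT-26 block rests on replicate numbers that differ between sources. The count over the 5 lists in RAW264.7 cells (28) was 12 with no filter on dim probes, 8 with slide as a block, 12 with slide 2 arrays alone, and 12 to 25 when single arrays were left out. The count in CT-26 cells (6) was 1 with no filter and 1 to 11 when single arrays were left out, highest without KD-primed replicate 1. With fewer arrays fewer calls can be made; other causes were not tested.

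Values that changed sign were all of genes not called. In RAW264.7 cells these were Bax at 0.044 with quantile normalization, Sesn1 at -0.077 with slide as a block and with slide 2 arrays alone, Cdkn1b at -0.10 with the mean of its probes, and Trp53 at 0.12 with median centring, 0.10 with quantile normalization and -0.27 to 0.019 when arrays were left out. In CT-26 cells median centring gave Ccng1 0.015 and Gadd45a 0.00821. Quantile normalization gave Bax -0.17, Bbc3 -0.0069, Plk2 -0.14, Gadd45b -0.15, Gadd45g -0.19 and Trp53 -0.056. Normexp gave Gadd45g -0.037 and Trp53 -0.056, the authors' deposited values gave Trp53 -0.000770, and the mean of probes gave Abhd5 -0.24. Leaving out single CT-26 arrays gave ranges of -0.16 to 0.069 for Ccng1, -0.071 to 0.12 for Bax, -0.20 to 0.089 for Gadd45a, -0.012 to 0.14 for Plk2, -0.013 to 0.13 for Abhd5, -0.0024 to 0.18 for Ccng2, -0.054 to 0.14 for Gadd45b, -0.084 to 0.18 for Gadd45g and -0.32 to 0.33 for Trp53. In the test of the difference, Bax was at 0.21 with quantile normalization, where the split of called genes was 5 positive and 0 negative, against 4 and 2.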
